A study of Mus musculus with 32 samples.

Results

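The genes described here are 34 markers and products of the oligodendrocyte lineage, the glial cells that wrap axons in myelin, as measured in the hypothalamus of mice with and without Gpr101. They were taken by symbol, through a GRCm38 annotation, from the 55401 Ensembl identifiers of the deposited table. That step used no measured value, but the symbols themselves were chosen with earlier results of these data known. By role they divide into 2 genes of precursors, 5 of newly formed oligodendrocytes, 6 transcription factors, 12 of the myelin membrane, 5 enzymes of myelin lipid and of metabolism, and 4 other genes of mature oligodendrocytes. The last 3 roles together are called the 21 myelinating genes below.

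The series asked how loss of the orphan receptor Gpr101, together with diet, altered hypothalamic gene expression. All animals were male C57BL/6NTac mice, and each library came from the hypothalamus of a separately labelled mouse by stranded RNA sequencing. The groups were hemizygous Gpr101 knockouts on high-fat diet (KO_HFD, 9 mice), knockouts on control diet (KO_CD, 8 mice), wild-type littermates on high-fat diet (WT_HFD, 8 mice) and their wild-type counterparts kept on the control diet (WT_CD, 7 mice). The high-fat diet took 60% of its energy from fat and began at 7 weeks of age. How the knockout was made and what the control diet held are not stated in the labels. Age at death followed diet, since 1 KO_HFD, 5 KO_CD, 1 WT_HFD and 6 WT_CD mice were 149 days old and the others 150 days old. Reads on genes ranged from 25.3 to 34.2 M per library. Gpr101 itself had 1 read in all KO_HFD libraries together and 0 in the KO_CD libraries, against 2471 to 3472 reads in WT_HFD and 2605 to 3145 in WT_CD, so the labels of genotype were met in every library.

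Oligodendrocytes arise from precursors that carry the receptor Pdgfra and the proteoglycan NG2, the product of Cspg4. Olig1, Olig2 and Sox10 set and keep the lineage, cells that have just left the cycle switch on Gpr17, Bcas1 and Enpp6, and the factor Myrf then drives the genes of myelin, among them Mbp and Mog. In the adult hypothalamus precursors continue to divide and to form new oligodendrocytes.

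Levels are given as CPM, reads scaled to the library's reads on genes. The 34 genes summed to 4949 ± 362 CPM in KO_HFD (SD, 9 mice), 5049 ± 287 in KO_CD (8 mice), 4915 ± 305 in WT_HFD (8 mice) and 4777 ± 254 in WT_CD (7 mice), so the means lay within about 1 SD of each other. Per kilobase of exon, which allows genes of unequal length to be compared, Mbp was first with 235 CPM per kilobase, followed by Cnp with 92.4, Mobp with 88.4 and Trf with 79.1. Nkx2-9 was last, with 0.681 CPM per kilobase and 12 to 41 reads per library. All 34 genes passed the filter on low values. Among markers of Schwann cells, which make the myelin of peripheral nerves, Pmp2 averaged 0.00561 CPM and was at 0 reads in some libraries. Of the same list, Prx (0.646 to 2.05 CPM), Ncmap (1.84 to 3.64 CPM), Pmp22 (16.8 to 27.5 CPM) and Drp2 (65.1 to 77.8 CPM) are not all restricted to Schwann cells.

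No oligodendrocyte or myelin gene differed between knockout and wild type at an adjusted p below 0.05, and 2 differed between diets. In the comparison of high-fat with control diet averaged over genotypes, Gpd1 and Nkx6-2 fell on high-fat diet, by 0.24 and 0.13 on the log2 scale. These 2 of 34 genes stand beside 67 of 19928 genes called in the same comparison, a background of 0.336%, and 0.151% of all genes were called lower on high-fat diet. For KO_CD against WT_CD 0 of 34 were called, with 0.00502% of all genes, and the same held for KO_HFD against WT_HFD, with 0.00502%. For WT_HFD against WT_CD 0 of 34 were called, with 0.0251% of all genes, and for KO_HFD against KO_CD 0 of 34, with 0.0351%. Genotype averaged over diets called 0 of 34 and 0.00502% of all genes, where the single gene was Gpr101, and the interaction of genotype and diet called 0 of 34 and 0% of all genes. Without adjustment the interaction had 0 of the 34 genes at p below 0.05. All of these calls are from limma with Benjamini-Hochberg adjustment over all 19928 genes. These comparisons share libraries and are not independent of each other.

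At an unadjusted p below 0.05, the number of the 34 genes was 3 for KO_CD against WT_CD, where 4.12% of all genes reached it, and 1 for KO_HFD against WT_HFD, where 5.15% did. It was 4 for KO_HFD against KO_CD (7.04% of all genes), 2 for WT_HFD against WT_CD (7.39%), 3 for genotype averaged over diets (5.72%), 5 for diet over both genotypes (11.1%), and 0 for the interaction, where 3.39% of all genes reached it. In tissue RNA, fewer cells of a type and less RNA per cell cannot be told apart.

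**Figure D1:**
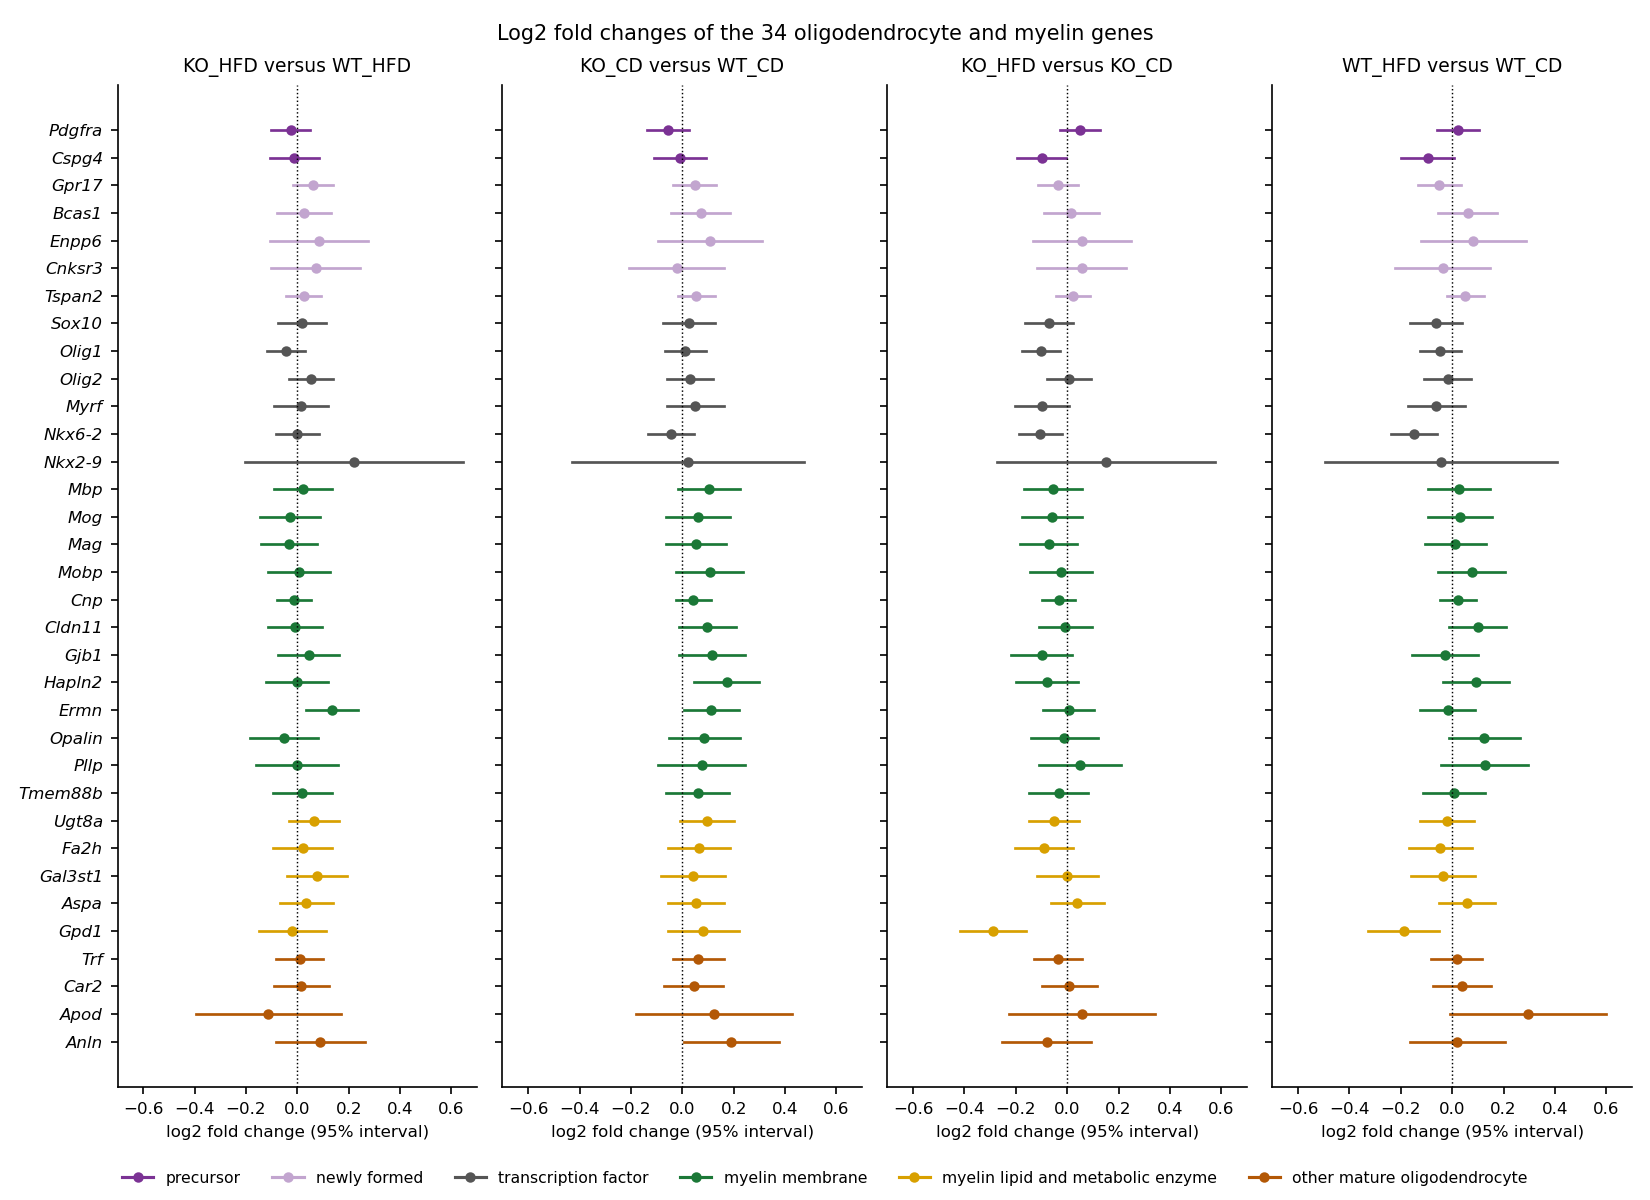
Log2 fold changes (x axis) of the 34 genes (rows, coloured by role) in 4 comparisons, with 95% intervals as bars. In KO_CD against WT_CD all 12 myelin membrane genes lie above 0, whereas in KO_HFD against WT_HFD 5 of 12 do. Gpd1 lies below 0 in both diet comparisons.

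On control diet the genes of mature oligodendrocytes leaned towards higher values in knockouts, without a called difference. All 12 myelin membrane genes had a log2 fold change above 0 in KO_CD against WT_CD, with a median of 0.09, as did all 5 enzymes (median 0.06) and all 4 other mature genes (median 0.09). Over all 34 genes, 30 were above 0 with a median of 0.06, while 49.8% of all genes tested were above 0 with a median of -0.000281. The precursor genes Pdgfra and Cspg4 were both below 0, at -0.05 and -0.01. On high-fat diet the lean was smaller. In KO_HFD against WT_HFD, 21 of the 34 genes were above 0 with a median of 0.02, and 5 of the 12 myelin membrane genes were, with a median of -0.000666. Single libraries decided that median of 0.02, which was -0.00402 without WT_HFD replicate 1, below 0 also without KO_HFD replicate 4, and 0.04 without KO_HFD replicate 7 or 9. These genes vary together from library to library, so their shared direction is not a set of independent observations. Some lists of markers of other cells leaned in KO_CD against WT_CD too, with 0 called in each list. Above 0 were 6 of 6 meningeal genes (median 0.13), 5 of 5 blood genes (0.07), 7 of 8 neuron genes (0.02) and 4 of 5 pituitary genes (0.18). Of ependymal genes 0 of 6 were (-0.12), and of astrocyte genes 2 of 8 (-0.03). Less one-sided were endothelial (5 of 7), microglial (3 of 8), mural cell (3 of 6), thalamus and habenula (3 of 6) and cortex and amygdala genes (3 of 5). In KO_HFD against WT_HFD 0 of 6 meningeal, 0 of 5 blood and 0 of 5 pituitary genes were above 0, beside 5 of 8 neuron and 2 of 6 ependymal genes. The part of these other cells in the lean was not tested.

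The largest 95% interval of any myelin membrane gene for KO_CD against WT_CD ran up to 0.30 on the log2 scale, a 1.23-fold difference, and the lowest down to -0.09. For KO_HFD against WT_HFD the corresponding bounds were 0.23 and -0.18. In the test of the interaction, 11 of 12 myelin membrane genes were below 0 with a median of -0.08, and Hapln2 was farthest from 0 by its test, at -0.17 ± 0.09 (SE), with an adjusted p of 0.999 by limma.

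Of the precursor genes, Pdgfra (GRCm38 chromosome 5, 75152292 to 75198215, plus strand) encodes the receptor for platelet-derived growth factor that keeps precursors dividing. Its normalized counts, given throughout as lowest, median and highest, were 1688, 1856 and 2038 in KO_HFD, 1663, 1776 and 1946 in KO_CD, 1703, 1898 and 2175 in WT_HFD, and 1800.03, 1838 and 1965 in WT_CD. The 4 ranges overlapped, but 5 of 8 KO_CD libraries lay below the lowest WT_CD library. Of 8 WT_HFD libraries, 3 lay above the highest WT_CD library and 3 below the lowest. The log2 difference for KO_CD against WT_CD was -0.05 ± 0.04 (SE), with an unadjusted p of 0.188 by limma. Cspg4 had 746, 819 and 873 in KO_HFD, 779, 877 and 936 in KO_CD, 672, 825 and 909 in WT_HFD, and 819.6, 842 and 966 in WT_CD. Its values on high-fat diet lay somewhat lower within overlapping ranges, and the diet difference averaged over genotypes was -0.10 ± 0.03 (SE) on the log2 scale, with an unadjusted p of 0.00735 and an adjusted p of 0.250 by limma.

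Among the genes of newly formed oligodendrocytes, Bcas1 marks cells that are starting to myelinate and Tspan2 encodes a tetraspanin of young and mature cells. Bcas1 had 3117, 3703 and 4047 normalized counts in KO_HFD, 3327, 3642 and 3749.5 in KO_CD, 3251, 3479 and 4048 in WT_HFD, and 3050.2, 3495.5 and 3623 in WT_CD. Tspan2 had 3485, 3765 and 4143 in KO_HFD, 3460.3, 3729 and 3910.5 in KO_CD, 3312, 3707 and 3987 in WT_HFD, and 3394, 3529 and 3809 in WT_CD. Groups overlapped for both, with genotype differences of 0.07 (Bcas1) and 0.05 (Tspan2) on control diet that did not pass the test. Gpr17, a receptor that is on only in cells between precursor and mature oligodendrocyte, had 1463, 1554 and 1757 in KO_HFD, 1515, 1596 and 1753 in KO_CD, 1359, 1522 and 1604 in WT_HFD, and 1413, 1546 and 1741 in WT_CD. Its difference of 0.06 ± 0.04 (SE) in KO_HFD against WT_HFD had an adjusted p of 0.948 by limma, and 4 of 9 KO_HFD libraries lay above the highest WT_HFD library. Enpp6, a choline phosphodiesterase of new oligodendrocytes, and Cnksr3, a scaffold protein, were low at 7.39 and 4.62 CPM, and their widest 95% interval in either genotype comparison reached 0.31.

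Of the 6 transcription factors, 5 of 6 were below 0 for high-fat against control diet averaged over genotypes, with a median of -0.07, beside a median of -0.00076 over all genes. Nkx6-2, a homeodomain factor of myelinating cells (chromosome 7, 139579376 to 139582797, minus strand), was the one called. It had 910, 1017 and 1088 normalized counts in KO_HFD, 971, 1093 and 1220.1 in KO_CD, 925, 999.6 and 1102 in WT_HFD, and 1028, 1104 and 1175 in WT_CD. The ranges overlapped, yet all 9 KO_HFD libraries lay below the KO_CD median and all 8 WT_HFD libraries below the WT_CD median. Its diet difference was -0.10 ± 0.04 (SE) in knockouts and -0.15 ± 0.04 in wild type, and -0.13 ± 0.03 averaged over genotypes, with an adjusted p of 0.0434 by limma. That call was lost in 19 of 32 fits that left out 1 library, where the adjusted p ran from 0.0212 to 0.0857. Nkx6-2 shares 246 exon bases with Inpp5a, a gene on the opposite strand at 53.3 CPM, and since the strand setting of the counting is not given, their reads there cannot be told apart. The same holds for 154 exon bases of Cnp with Dnajc7, 188 of Gpr17 with Lims2, and 1128 of Pllp with the antisense gene Gm45767 (3.34 CPM, against 6.72 CPM for Pllp). Other overlaps, with opposite-strand genes at lower levels, include 384 exon bases of Gpd1 with Gm16537 (0.135 CPM), 440 of Bcas1 with Bcas1os1 (0.299 CPM) and 237 of Ermn with Galnt5 (0.175 CPM). Inpp5a itself had a diet difference of -0.04 (adjusted p = 0.588 by limma).

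Olig1, which with Olig2 sets the lineage, had 2945, 3318 and 3563 normalized counts in KO_HFD, 3253, 3428 and 3759 in KO_CD, 3172, 3291 and 3556 in WT_HFD, and 3208, 3477 and 3607 in WT_CD. In knockouts 4 of 9 high-fat libraries lay below the lowest control-diet library, and the difference of -0.10 ± 0.04 (SE) for KO_HFD against KO_CD had an unadjusted p of 0.00919 and an adjusted p of 0.535 by limma. Myrf, the activator of myelin genes, was at -0.08 for diet averaged over genotypes (unadjusted p = 0.0446, adjusted p = 0.443 by limma) and Sox10, its partner, at -0.07 (adjusted p = 0.473). Olig2 was at -0.01 for that contrast, and Nkx2-9, a homeodomain factor read at very low counts here, had intervals from -0.50 to 0.64 over the 4 single comparisons.

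**Figure D2:**
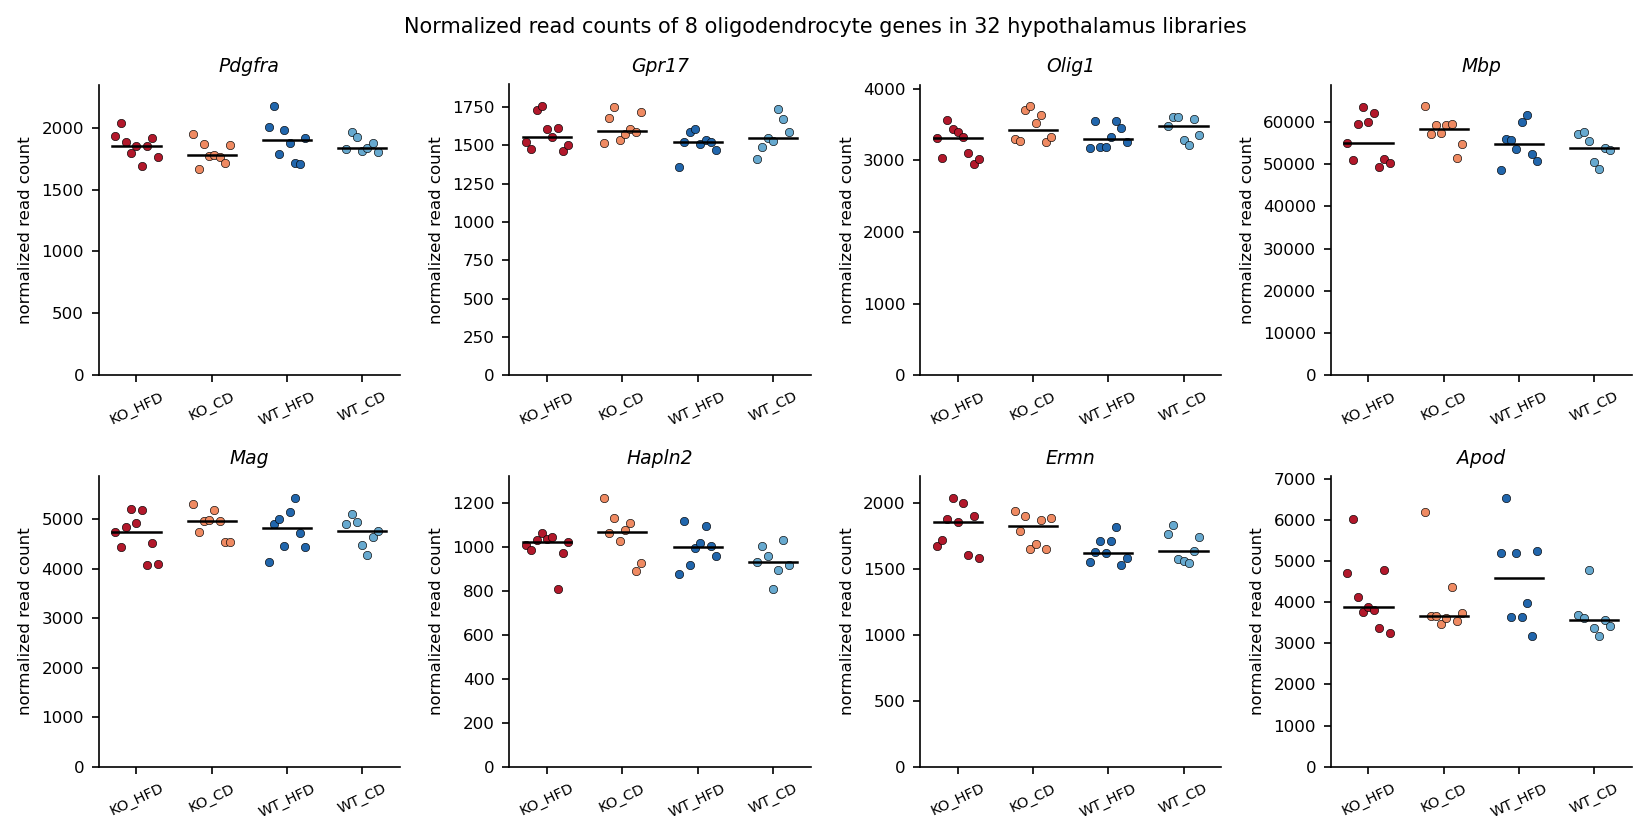
Normalized read counts (y axis, from 0) of 8 of the genes in each of 32 libraries, by group (x axis), with the group median as a line. Groups overlap for every gene, and Apod has single libraries far above its group medians.

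In the myelin membrane, Mbp, which holds the cytoplasmic faces of compact myelin together, had 49442, 55076 and 63445 normalized counts in KO_HFD, 51558, 58315 and 63782 in KO_CD, 48684, 54733 and 61724 in WT_HFD, and 48736, 53778 and 57649 in WT_CD. Its difference was 0.10 ± 0.06 (SE) for KO_CD against WT_CD and 0.02 ± 0.06 for KO_HFD against WT_HFD. Cnp, an enzyme of the non-compact myelin channels, had 8593, 9341 and 10163 in KO_HFD, 8924, 9742 and 10212 in KO_CD, 8756, 9486 and 9947 in WT_HFD, and 8919, 9286 and 9645 in WT_CD. Cnp was among the steadiest of the 34 genes, with a highest library 1.19 times its lowest.

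Hapln2, a link protein of the node of Ranvier matrix (chromosome 3, 88021750 to 88027583, minus strand), had the smallest p for genotype on control diet. It had 807, 1024 and 1063 normalized counts in KO_HFD, 889.5, 1069.7 and 1224 in KO_CD, 876, 999 and 1117 in WT_HFD, and 807, 933 and 1032 in WT_CD. Of 8 KO_CD libraries, 5 lay above the highest WT_CD library. The log2 difference was 0.17 ± 0.06 (SE) for KO_CD against WT_CD, with an unadjusted p of 0.00961 and an adjusted p of 1.00 by limma, and -0.00105 ± 0.06 for KO_HFD against WT_HFD.

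Ermn, a cytoskeletal protein of mature oligodendrocytes (chromosome 2, 58045113 to 58052864, minus strand), was the one member near the front in both genotype comparisons. It had 1584, 1859 and 2042 normalized counts in KO_HFD, 1652, 1827 and 1943 in KO_CD, 1529.8, 1624 and 1818 in WT_HFD, and 1543, 1633 and 1833 in WT_CD. All 8 KO_CD libraries lay above the WT_CD median, and 7 of 9 KO_HFD libraries above the WT_HFD median, with ranges that overlapped. The differences were 0.11 ± 0.05 (SE) on control diet and 0.13 ± 0.05 on high-fat diet. Averaged over diets it was 0.12 ± 0.04, with an unadjusted p of 0.00176 and an adjusted p of 0.758 by limma, so it did not pass.

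The other 8 membrane genes gave no called difference. Mog (on the outer face of myelin), Mag (on the face against the axon), Mobp, Cldn11 (the claudin of myelin's tight junctions), Gjb1 (a connexin), Opalin, Pllp and Tmem88b had differences between 0.05 and 0.12 for KO_CD against WT_CD, and between -0.05 and 0.04 for KO_HFD against WT_HFD. Reads of Pllp and of its antisense neighbour Gm45767 cannot be told apart where they overlap.

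Among the enzymes, Gpd1, the cytosolic glycerol-3-phosphate dehydrogenase that links glycolysis to glycerolipid synthesis and is enriched in oligodendrocytes (chromosome 15, 99717515 to 99725005, plus strand), fell on high-fat diet. It had 199.8, 261 and 294 normalized counts in KO_HFD, 274, 317 and 337 in KO_CD, 235, 255 and 298 in WT_HFD, and 249.8, 312 and 316 in WT_CD. Of 9 KO_HFD libraries, 6 lay below the lowest KO_CD library, and of 8 WT_HFD libraries, 2 lay below the lowest WT_CD library. The log2 difference was -0.24 ± 0.05 (SE) averaged over genotypes, with an adjusted p of 0.00633 by limma. It was -0.29 ± 0.06 in knockouts, with an adjusted p of 0.0776, and -0.19 ± 0.07 in wild type, with an adjusted p of 0.546. The interaction was -0.10 ± 0.09 with an adjusted p of 0.999, so a difference between genotypes in this response was not detected.

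Diet and age are close to the same split of the mice, which touches every diet comparison given here, including those of both called genes. With age as a covariate the diet difference of Gpd1 was -0.25 with an adjusted p of 0.125, and that of Nkx6-2 was -0.13 with an adjusted p of 0.278, so the sizes were kept and the calls were not. Among mice of 150 days, Gpd1 had a median of 264 normalized counts in KO_HFD (8 mice), 308 in KO_CD (3 mice), 255 in WT_HFD (7 mice) and 312 in WT_CD (1 mouse). Nkx6-2 had medians of 1016 in KO_HFD, 1001 in KO_CD, 1017 in WT_HFD and 1152 in WT_CD among those mice. In knockouts of that age the median was thus slightly higher on high-fat diet, whereas the mean was lower, at 1003 in KO_HFD and 1045 in KO_CD. The fitted diet difference in knockouts was -0.06 among mice of 150 days, against -0.10 over all mice. In 149-day knockouts the median was 1017 in KO_HFD (1 mouse) and 1118 in KO_CD (5 mice). All 5 blood genes were above 0 for high-fat diet averaged over genotypes, the lowest at 0.30. Of them 4, the hemoglobin genes, were called, at 0.59 to 0.62. The summed level of the 5 was 529 to 1262 CPM in KO_HFD, 321 to 722 in KO_CD, 521 to 1422 in WT_HFD and 340 to 566 in WT_CD. The correlation of the blood mean with Gpd1 over 32 libraries, after removal of group means, was 0.34, and with Nkx6-2 it was 0.01. Of 6 genes of thalamus and habenula, neighbouring regions of the dissection, 1 was called for diet, Gpr151, which rose by 0.67 (adjusted p = 0.00139 by limma), while the other 5 were below 0. The mean of the 6 correlated at -0.23 with Gpd1 and at 0.14 with Nkx6-2. The part of blood and of these regions in these results was not tested.

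**Figure D3:**
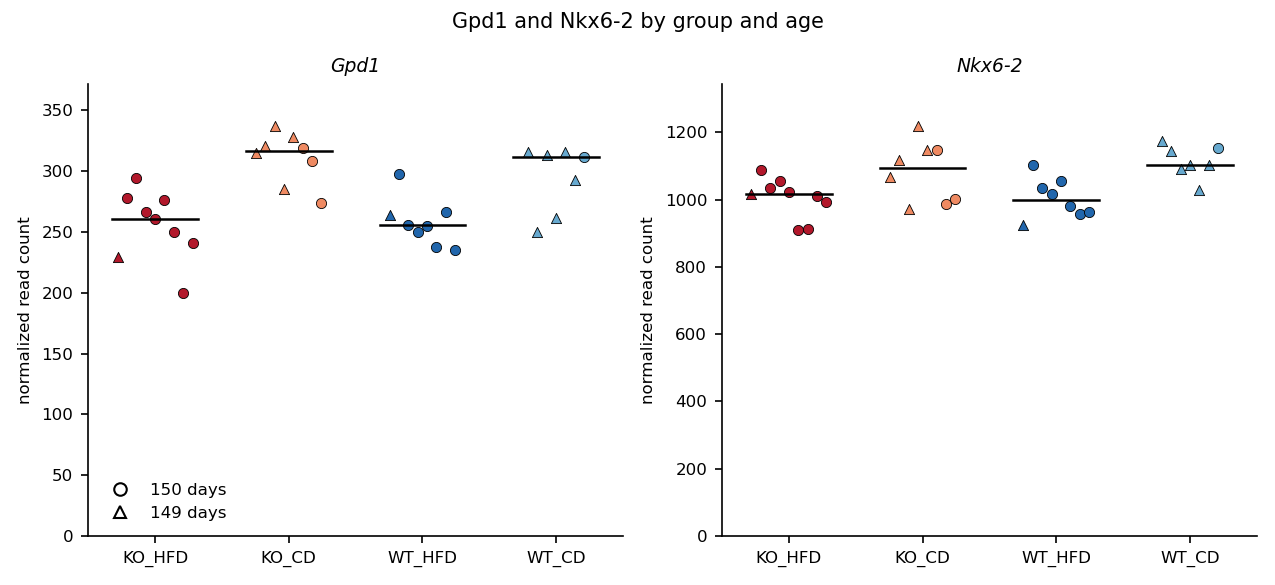
Normalized read counts (y axis, from 0) of Gpd1 and Nkx6-2 in each library by group (x axis), with mice of 150 days as circles, mice of 149 days as triangles and group medians as lines. Most triangles stand in the control-diet groups, and for both genes the high-fat medians lie below the control-diet medians.

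The other enzymes act in myelin lipids or acetate supply. Ugt8a, which makes galactosylceramide, had 1347, 1589.9 and 1792 normalized counts in KO_HFD, 1504, 1617 and 1735 in KO_CD, 1329, 1505 and 1686 in WT_HFD, and 1416, 1506 and 1639 in WT_CD. Fa2h, which hydroxylates the fatty acids of that lipid, had 883, 1035 and 1191 in KO_HFD, 1005, 1067 and 1214 in KO_CD, 845, 988 and 1136 in WT_HFD, and 929, 1033 and 1114 in WT_CD. Gal3st1, which makes sulfatide from it, had 248, 289.99 and 339 in KO_HFD, 261, 293 and 322 in KO_CD, 255, 271 and 319 in WT_HFD, and 249.4, 295 and 312 in WT_CD. Groups overlapped for all 3. Ugt8a had a difference of 0.08 ± 0.04 (SE) for genotype averaged over diets, with an unadjusted p of 0.0302 and an adjusted p of 0.866 by limma. Aspa, which releases acetate from N-acetylaspartate, was at 0.05 for diet averaged over genotypes.

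Of the other mature genes, Trf encodes transferrin and Car2 a carbonic anhydrase. Trf had 6515, 7550.0 and 8014 normalized counts in KO_HFD, 7109, 7289 and 8479 in KO_CD, 6819, 7134 and 8145 in WT_HFD, and 6569, 7489 and 7598 in WT_CD. Car2 had 3782, 3983 and 4673 in KO_HFD, 3775, 4212 and 4437 in KO_CD, 3518, 4096 and 4906 in WT_HFD, and 3868, 4020.5 and 4300.03 in WT_CD. The largest difference of either was 0.06, for Trf in KO_CD against WT_CD, among the 4 single comparisons. Anln, an actin-binding scaffold that stabilises myelin septin filaments, had 733, 900.4 and 1087 in KO_HFD, 742.5, 876 and 1258 in KO_CD, 725, 843 and 916 in WT_HFD, and 739, 802 and 944 in WT_CD, and its difference of 0.19 ± 0.09 (SE) for KO_CD against WT_CD had an adjusted p of 1.00 by limma.

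Apod, the lipid carrier apolipoprotein D (chromosome 16, 31296192 to 31314808, minus strand), was the most variable member with appreciable counts, with a highest library 2.06 times its lowest. It had 3259, 3889 and 6028 normalized counts in KO_HFD, 3464, 3668 and 6206 in KO_CD, 3174, 4587 and 6554 in WT_HFD, and 3179, 3562 and 4798 in WT_CD. Of 8 WT_HFD libraries, 4 lay above the highest WT_CD library and 1 below the lowest. The difference of 0.29 ± 0.15 (SE) for WT_HFD against WT_CD had an unadjusted p of 0.0556 and an adjusted p of 0.688 by limma.

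Apod varied with genes of the meninges and vessels more than with those of myelin. Deviations from group means over 32 libraries correlated at 0.91 between Apod and the mean of 6 meningeal fibroblast genes (Col1a1, Col1a2, Col3a1, Dcn, Lum and Slc6a13), with Spearman's rho at 0.85, and at 0.87 with 6 mural cell genes. Without the 2 libraries farthest from the median of the meningeal mean the value was 0.89, and with age and blocks of the label numbers removed it was 0.92. With the mean of the myelin membrane genes the correlation of Apod was 0.17. Pdgfra behaved likewise, at 0.83 with the meningeal genes (Spearman's rho 0.80, and 0.78 without the 2 farthest libraries) and 0.80 with 7 endothelial genes, and at -0.19 with 10 other precursor genes. With the mean of 10 other newly formed genes Apod was at 0.84 and Pdgfra at 0.76. In that list Bmp4 and Tcf7l2 varied far more between libraries than Fyn or Plekha1. A mean of deviations follows such genes most, so it need not stand for the list as a set. Apod and Pdgfra correlated at 0.79, the highest of the 42 pairs of a precursor and a myelinating gene. Fibroblasts of the meninges and vessels are known to express both. Cspg4, by contrast, was at 0.05 with the meningeal genes and 0.62 with the other precursor genes. These correlations were chosen after the values were seen and are descriptions of these libraries.

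The summed meningeal genes ranged from 47.8 to 195.5 CPM in KO_HFD, 39.8 to 157.6 in KO_CD, 41.0 to 195.7 in WT_HFD and 46.3 to 112 in WT_CD. For WT_HFD against WT_CD 6 of 6 were above 0 with a median of 0.55, and 0 were called. Their part in the Apod and Pdgfra values was not tested.

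**Figure D4:**
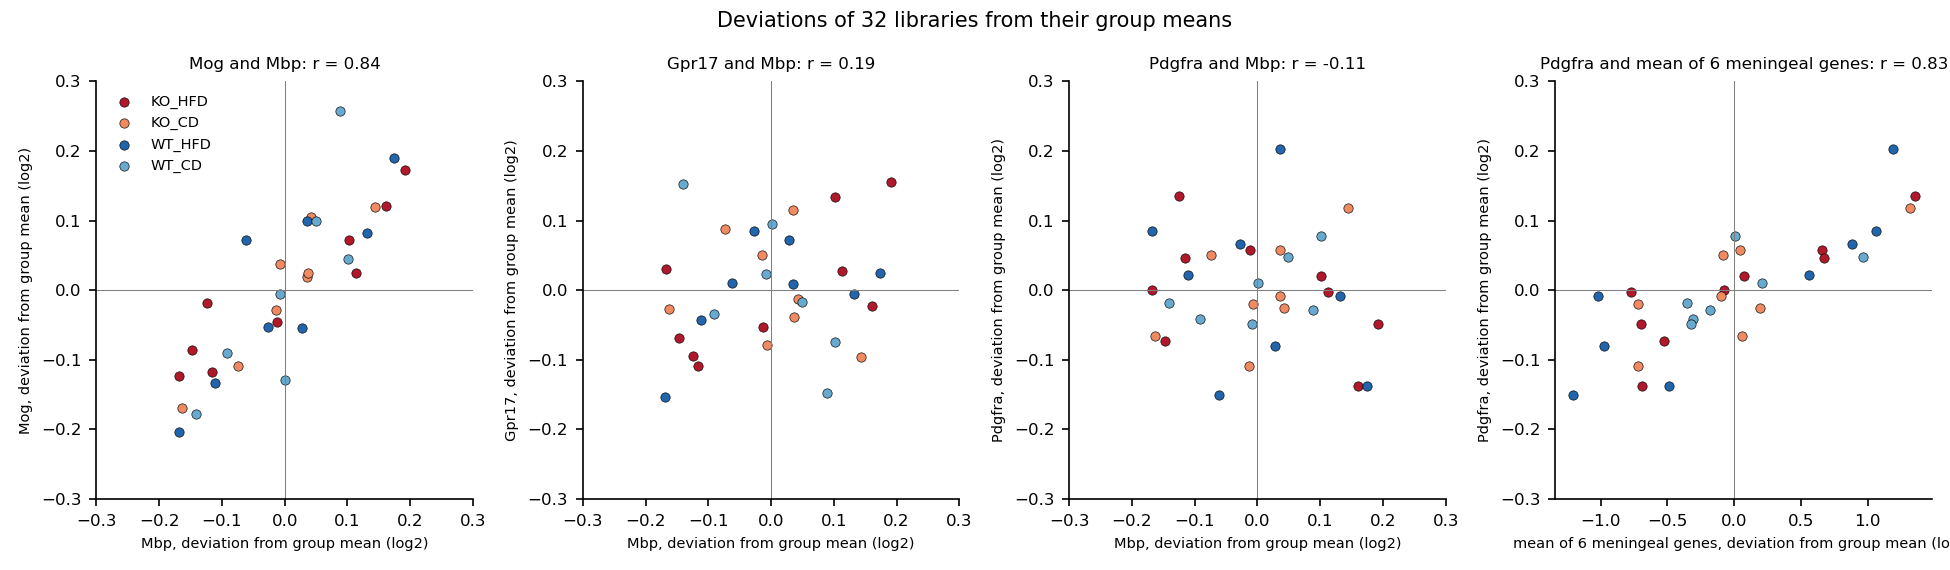
Deviation of each of 32 libraries from its group mean, in log2, coloured by group. Mog rises with Mbp (r = 0.84), Gpr17 and Pdgfra show little relation to Mbp (r = 0.19 and -0.11), and Pdgfra follows the mean of 6 meningeal genes (r = 0.83).

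Within groups the myelinating genes varied together from mouse to mouse. Over the 210 pairs among the 21 myelinating genes, the median correlation of deviations from group means was 0.61, with 134 pairs above 0.5 and 3 below 0. Pairs of a myelinating gene with a newly formed gene had a median of 0.40, with a transcription factor 0.33 and with a precursor gene 0.02. The first principal component of the 34 genes held 48.2% of their variance and the second 9.10%. All points share the same 32 libraries, dissections and size factors.

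Against the mean of the myelin membrane genes, each gene left out of its own mean, the highest correlations were those of Mag (0.93), Mbp (0.92), Mobp (0.91) and Cnp (0.89), followed by Trf (0.88). The newly formed genes split. Bcas1 (0.86) and Tspan2 (0.84) lay among the myelin genes, Enpp6 was at 0.58, and Cnksr3 (0.15) and Gpr17 (0.04) lay apart. Of the transcription factors, Myrf was at 0.81, Sox10 at 0.60, Olig1 at 0.57 and Nkx6-2 at 0.41, against 0.11 for Olig2 and -0.02 for Nkx2-9, whose counts are low. Gpd1 was at 0.19. Cspg4 and Pdgfra were at -0.01 and -0.05.

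The spread behind this was small. By the mean deviation of the 12 myelin membrane genes, the lowest libraries were KO_HFD replicate 7 at -0.19, with 0 of 12 genes above its group mean, and WT_HFD replicate 1 at -0.16, also with 0 of 12. The highest were KO_HFD replicate 6 at 0.15, with 12 of 12 above, and KO_CD replicate 1 at 0.13, with 11 of 12. These deviations are taken from each group's own mean, so they cannot show a difference between groups.

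**Figure D5:**
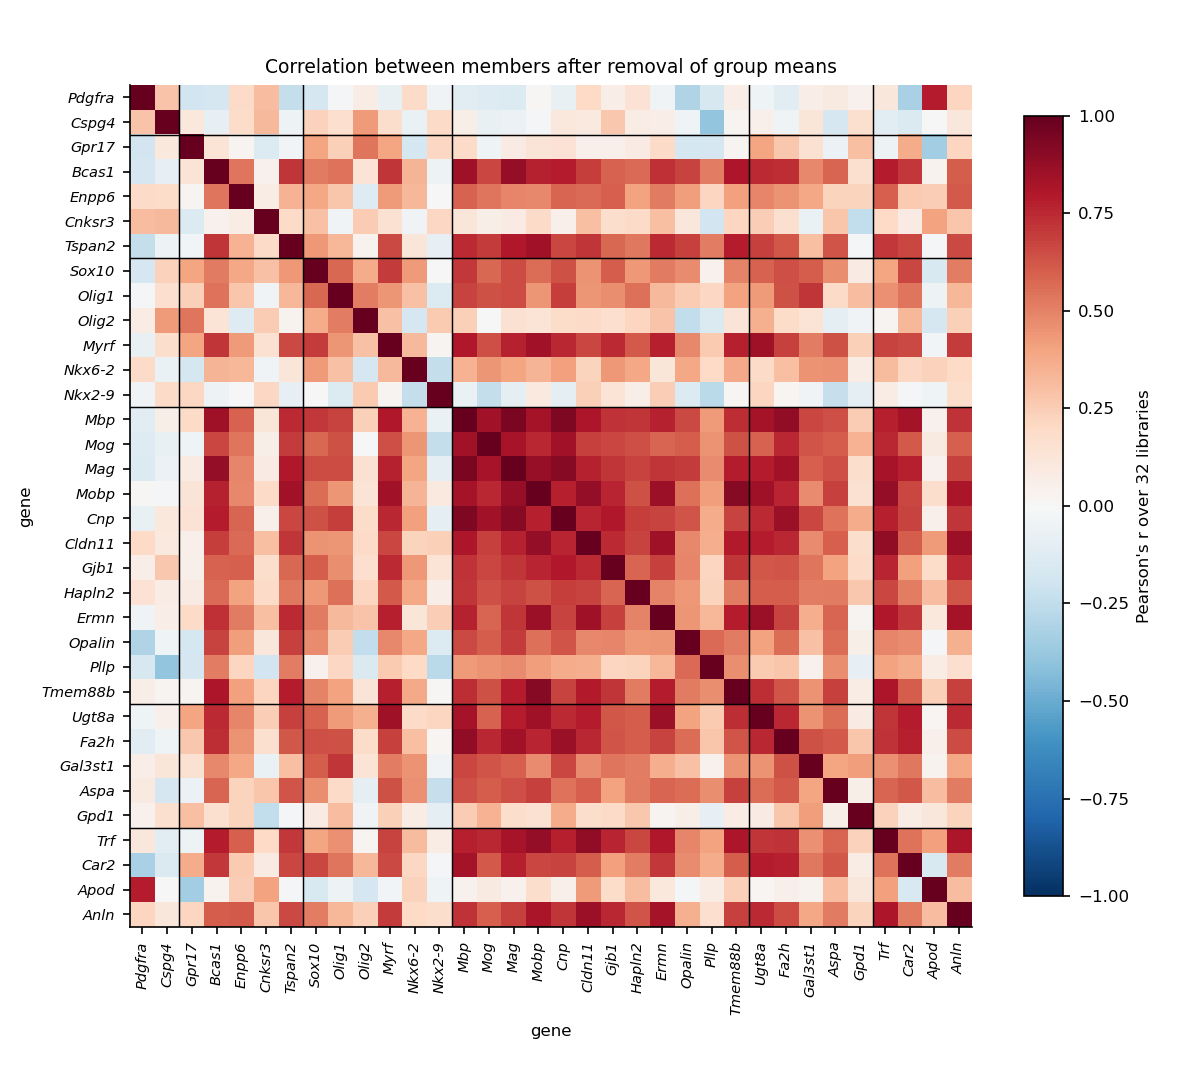
Pearson correlations (colour, from -1 to 1) between the 34 genes over 32 libraries after removal of group means, with roles separated by lines. Most myelinating genes form a block of high values (median 0.61 over their 210 pairs) in which Pllp is weaker (0.46 with the membrane mean), Bcas1, Tspan2 and Myrf are correlated with it, and Pdgfra, Cspg4, Gpr17, Cnksr3, Olig2, Nkx2-9, Gpd1 and Apod stand outside it.

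Of 9 gene pairs tested by permutation with 100000 resamples (two-sided, Benjamini-Hochberg over the 9), Mbp with Mog gave Pearson's r = 0.84 and Spearman's rho = 0.85. Each had a permutation p = 1e-05, the smallest that the permutations can give, and adjusted p = 4.5e-05. Without the 2 libraries farthest from the median of Mbp r was 0.81, and with age and label blocks removed 0.80. Mbp with the neuronal gene Snap25 gave r = 0.42 (p = 0.0172, adjusted p = 0.0516) and rho = 0.43 (p = 0.0145, adjusted p = 0.0435), and r = 0.38 without the 2 farthest libraries (adjusted p = 0.118), where the adjusted p by rank was 0.0633. With CPM scaling on all 32 libraries rho was 0.39 (adjusted p = 0.0888). With age and label blocks removed rho was 0.43 (adjusted p = 0.042) and r was 0.38 (adjusted p = 0.0927). The pair thus passed by rank alone, in the main setting and with age and label blocks removed, and under neither of the other alternatives. Pairs that did not pass were Mbp with Pdgfra (r = -0.11, rho = -0.11, permutation p = 0.541 and 0.558), Mbp with Gpr17 (0.19 and 0.18, p = 0.300 and 0.330), Mog with Pdgfra (-0.13 and -0.16, p = 0.483 and 0.371) and Pdgfra with Cspg4 (0.28 and 0.30, p = 0.114 and 0.0932). Mbp with the astrocyte gene Gfap gave -0.00105 and -0.04 (permutation p = 0.996 and 0.817).

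The promoters of the 3 myelin genes that tracked the myelin mean most closely among those with an entry, Mag, Mobp and Cnp, are shown with those of Nkx6-2, called for diet, and Pdgfra, which did not track it. Each runs from 250 bases before to 50 after the annotated start, 5′ to 3′ on the gene's strand, from RefSeq on GRCm38.p6. Capitals mark matches on either strand to ACAAAG (a SOX HMG box motif, CTTTGT on the other strand), CAGCTG (an E-box, the kind of site bound by the class of factors that holds Olig1 and Olig2), CTGGCAC (a core bound by MYRF, GTGCCAG on the other strand) and TATAAA (the TATA box, TTTATA on the other strand). Mag is at chr7:30914814-30915113 (minus strand). This is the middle by position of its 3 annotated starts, and the others are not shown. Mobp is at chr9:120149492-120149791 (plus), Cnp at chr11:100574689-100574988 (plus), Nkx6-2 at chr7:139582748-139583047 (minus) and Pdgfra at chr5:75152001-75152300 (plus).
Mag: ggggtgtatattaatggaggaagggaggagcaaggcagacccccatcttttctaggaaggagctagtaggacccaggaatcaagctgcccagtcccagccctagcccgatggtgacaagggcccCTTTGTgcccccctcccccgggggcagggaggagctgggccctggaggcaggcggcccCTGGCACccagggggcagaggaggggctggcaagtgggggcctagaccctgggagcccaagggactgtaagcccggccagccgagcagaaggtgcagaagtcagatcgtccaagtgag
Mobp: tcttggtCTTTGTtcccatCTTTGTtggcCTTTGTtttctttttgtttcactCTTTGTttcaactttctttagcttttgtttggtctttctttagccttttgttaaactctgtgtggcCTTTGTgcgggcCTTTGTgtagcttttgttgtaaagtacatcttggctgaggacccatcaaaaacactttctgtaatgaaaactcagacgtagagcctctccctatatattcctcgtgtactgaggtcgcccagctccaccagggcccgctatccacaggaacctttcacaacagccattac
Cnp: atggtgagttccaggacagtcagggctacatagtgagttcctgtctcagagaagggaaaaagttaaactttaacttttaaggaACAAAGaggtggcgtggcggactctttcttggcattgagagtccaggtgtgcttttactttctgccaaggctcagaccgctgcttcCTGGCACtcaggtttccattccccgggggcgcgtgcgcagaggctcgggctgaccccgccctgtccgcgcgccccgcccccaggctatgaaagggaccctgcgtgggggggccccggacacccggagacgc
Nkx6-2: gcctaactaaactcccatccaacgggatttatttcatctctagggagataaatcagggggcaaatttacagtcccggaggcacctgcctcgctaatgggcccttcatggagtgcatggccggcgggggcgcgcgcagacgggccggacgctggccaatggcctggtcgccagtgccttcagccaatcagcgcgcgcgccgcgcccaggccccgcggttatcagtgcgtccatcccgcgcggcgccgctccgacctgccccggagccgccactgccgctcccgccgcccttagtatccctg
Pdgfra: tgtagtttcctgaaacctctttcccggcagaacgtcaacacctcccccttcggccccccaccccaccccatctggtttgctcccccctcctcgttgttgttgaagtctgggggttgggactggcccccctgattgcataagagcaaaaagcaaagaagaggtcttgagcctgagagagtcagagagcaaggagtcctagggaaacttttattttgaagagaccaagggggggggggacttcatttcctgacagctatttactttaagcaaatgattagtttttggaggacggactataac

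Mag held 1 match to the SOX motif and 1 to the MYRF core, as did Cnp, and Mobp held 6 matches to the SOX motif. Nkx6-2 and Pdgfra held none of the 4 motifs in these windows. No match overlapped another in these 5 promoters. The 24 members with an entry had 32 promoters. The SOX motif was in 10 of the 32, against 18.7% of all 32851 promoters, and the MYRF core in 5 of 32, against 5.01%, in Cnp, Hapln2, Mag and Opalin. The E-box was in 5 of 32, against 16.3%, and the TATA box in 3 of 32, against 13.6%. These are matches of letters and not sites of binding, and the lack of a match says only that these letters are not in the window. Promoters were matched by symbol for 24 of the 34 members, and not for Gpr17, Bcas1, Sox10, Olig1, Myrf, Mbp, Fa2h, Gpd1, Trf and Car2.

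Among the 19894 other genes tested, correlations with the myelin membrane mean had a median of -0.01, a 5th percentile of -0.39 and a 95th percentile of 0.40. The 10 most like it included the lysophospholipase Enpp2 (0.89), Tmem63a (0.87), the myelin membrane gene Mal (0.85), the septin gene Sept4 (0.83), Map6d1 (0.82), Ado (0.81), Sec14l5 (0.81), Prr18 (0.80) and Trnp1 (0.79). Mal and Sept4 belong to the list of other myelin genes. The most opposed were Calcr (-0.77), the calcitonin receptor, Adcy6 (-0.77), Vwa5b1 (-0.75), Irs4 (-0.74), an insulin receptor substrate of hypothalamic neurons, and Gda (-0.74). Each of these was chosen by its value among 19894 genes.

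Other genes of the lineage and of myelin gave no call for genotype or diet. For KO_CD against WT_CD, 0 of 20 other myelin genes were called, 18 of 20 were above 0 and their median was 0.05. The smallest p was that of Evi2a (0.22 ± 0.08 SE, adjusted p = 1.00 by limma), then Cntn2, an adhesion molecule of the juxtaparanode (0.06 ± 0.03). For KO_HFD against WT_HFD, 0 of 20 were called and 16 of 20 were above 0 with a median of 0.03. There the smallest p belonged to Gjc3, a glial connexin (0.07 ± 0.04), and Cd9, a tetraspanin (-0.07 ± 0.05).

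Of 10 other precursor genes 0 were called, with medians of -0.00948 on control diet and -0.00185 on high-fat diet. The smallest p on control diet were those of Matn4 (0.09 ± 0.05 SE) and the phosphatase Ptprz1 (-0.04 ± 0.02), and on high-fat diet of Lhfpl3 (0.07 ± 0.03) and Cspg5 (-0.01 ± 0.02). Of 10 other newly formed genes 0 were called, with medians of 0.02 and 0.01, led by Casr (0.19 ± 0.13) and Tcf7l2, a Wnt pathway factor (0.36 ± 0.25), on control diet and by Plekha1 (0.05 ± 0.03) and Bmp4 (-0.25 ± 0.28) on high-fat diet. Of 13 regulators of the lineage 0 were called, with medians of 0.01 and -0.01, led by Qk, an RNA-binding protein of myelin transcripts (0.06 ± 0.03), and Sox8 (0.05 ± 0.04) on control diet and by Sox8 (-0.07 ± 0.04) and Hes5 (-0.19 ± 0.10) on high-fat diet. Of 9 axonal genes of nodes and paranodes 0 were called, with medians of 0.02 and 0.04, led by Cntnap1 (0.05 ± 0.03) and Nefl (0.03 ± 0.03) on control diet and by Cntn1 (0.04 ± 0.02) and Cntnap2 (0.05 ± 0.03) on high-fat diet. Of 20 genes of cholesterol synthesis 0 were called, with medians of -0.03 and 0.000676, with Sqle at -0.06 ± 0.03 on control diet and led by Cyp51 (0.08 ± 0.04) and Sqle (0.06 ± 0.03) on high-fat diet. The lowest adjusted p among the genes named here was 0.948 by limma.

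Averaged over genotypes, high-fat diet gave 0 called of 20 genes of cholesterol synthesis, the pathway that supplies the main lipid of myelin, but 9 of 20 were lower at an unadjusted p below 0.05, where 5.2% of all genes were lower at that p, and 18 of 20 were below 0 with a median of -0.05. The 2 with the smallest p were Srebf2, the regulator of the pathway (-0.07 ± 0.02 SE, adjusted p = 0.0895 by limma), and Dhcr7 (-0.08 ± 0.02, adjusted p = 0.0950). As in the other diet comparisons, age followed diet here, and its part was not tested for this pathway. The other 5 lists of lineage and axonal genes had 0 called for diet. Among 20 other myelin genes the median was 0.00437, with the smallest p in Ppp1r14a (-0.10 ± 0.05) and Nfasc (-0.04 ± 0.02), and among 10 other precursor genes it was -0.02, with C1ql1 (0.10 ± 0.04) and Ptprz1 (-0.03 ± 0.02). Among 10 other newly formed genes it was 0.00363, with Bmp4 (0.48 ± 0.20) and the kinase Fyn (-0.03 ± 0.02), among 13 regulators -0.01, with Adgrg1 (-0.07 ± 0.02) and Id2 (-0.08 ± 0.03), and among 9 node and paranode genes -0.02, with Scn8a (-0.06 ± 0.03) and Cntnap2 (-0.03 ± 0.02).

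The members' covariation reached other lists too. With the mean of the myelin membrane genes, the median correlation was 0.63 for the 20 other myelin genes, 0.35 for cholesterol synthesis, 0.44 for 8 neuron genes and 0.32 for node and paranode genes. It was 0.13 for other precursor genes, -0.10 for other newly formed genes, -0.14 for meningeal genes and -0.47 for 6 genes of the ependyma, the lining of the third ventricle, with all 6 between -0.59 and -0.36. The ependymal genes were all below 0 for KO_CD against WT_CD, with a median of -0.12, 2 of 6 at an unadjusted p below 0.05 and 0 called, in the comparison where the 12 myelin membrane genes were all above 0. Their summed level was 54.4 to 73.6 CPM in KO_HFD, 55.5 to 66.5 in KO_CD, 59.5 to 74.0 in WT_HFD and 55.8 to 82.7 in WT_CD. Their part in the myelin values was not tested.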

How the data were processed

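Hypothalamus libraries of 32 mice were sequenced, with 25.3 to 34.2 M reads on genes, and 1 value per gene and library was deposited. Per the submitters' processing notes, the tools included Trim Galore 0.6.2, cutadapt 2.10, STAR 2.7.6a and DESeq2 1.28.1 with build GRCm38. No source used here names the counting tool or its strand setting. The authors deposited log2 values whose steps show that each is the log2 of a read count scaled by a factor of its library, with genes without reads set to a floor of 0.1 on the linear scale. Whole reads were recovered for 100% of values within 1e-06 reads, and normalized counts are the antilog. Values were tested as log2(normalized count + 1), which understates changes of low genes, with limma 3.58.1 in R 4.3.3, with an intensity trend and robust moderation. All 4 groups entered 1 fit without covariates, and a gene was tested when it reached a normalized count of 10 in at least 7 libraries, which kept 19928 genes. Adjusted p-values are Benjamini-Hochberg over all of these with a threshold of 0.05, and all tests are two-sided. The script was also run on simulated data. Python 3.11.15 and scipy 1.17.1 gave correlations and permutation tests.

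The members and lists were chosen with earlier results of these data known. The named genes followed a rule: all members are accounted for, and values by group are given for the 2 of highest CPM per kilobase in each role and the 3 of smallest p for genotype on each diet and diet in each genotype. The rule also takes the 2 of smallest p per list, and the 10 outside genes most like and 5 most opposed to the myelin mean. Alternatives were other pseudocounts and filters, voom, CPM scaling, age or the block of consecutive label numbers as covariate, a replicate block and leaving out each library, and, chosen after seeing the data, mice of 1 age. A few results under this rule, and 2 of the 9 tested pairs, are not reported here.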

Additional observations from a re-analysis of the deposited data

Results flagged for a closer look

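Within groups, 5 of 136 sets of a gene and a group held a library far from the rest by Dixon's test, which chance does in about 1 in 20. Apod was 6206 normalized counts in KO_CD replicate 1, against 4382 in the next of 8 libraries, and 4798 in WT_CD replicate 3, against 3699 in the next of 7. These libraries had summed meningeal genes of 157.6 CPM and 112.4 CPM, the highest of their groups, and the part of the meninges was not tested. Fa2h was 1214 in KO_CD replicate 1, against 1096 in the next library. Hapln2 was 807.1 in KO_HFD replicate 7, the library farthest below its group in the myelin membrane genes, against 970.1 in the next of 9. Nkx2-9 was 42.76 in WT_CD replicate 7, against 25.49 in the next of 7, a gene with 12 to 41 reads per library.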

How the results depend on the processing

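The 2 calls for diet averaged over genotypes were the only ones among members, and they depended on the settings. The count was 1, with Gpd1 alone, without the filter on low values, with voom, with CPM scaling, without trend and robust moderation, and with the label block as covariate. It was 0 with age as covariate, where 12 genes were called in all against 67, and 0 among mice of 150 days, where WT_CD has 1 mouse that is assumed to vary like the rest and 0 genes were called in all. It was 2 with pseudocounts of 0.5 and 5 and with quality weights. Leaving out 1 library gave 1 to 2, since Gpd1 was called in all 32 fits (adjusted p up to 0.0160) and Nkx6-2 in 13. Nkx6-2 lost its call without KO_HFD replicate 5, 6, 7, 8 or 9, KO_CD replicate 2, 4, 5 or 6, WT_HFD replicate 1, 4, 6, 7 or 8, or WT_CD replicate 1, 2, 4, 6 or 7. For KO_HFD against KO_CD it gave 0 to 1, where Gpd1 was called without KO_CD replicate 8 or without KO_HFD replicate 3. Averaged over genotypes, the log2 diet differences kept their sign in every fit, from -0.26 to -0.22 for Gpd1 and from -0.14 to -0.11 for Nkx6-2. Replicate numbers showed no clear pairing of the samples. Deviations of 45 pairs with the same number correlated at a median of 0.00508, with 8 pairs above 0.1. For 338 pairs with different numbers the median was -0.000724, with 40 above 0.1. Within a label block 17 of 95 pairs were above 0.1, against 31 of 288 between blocks. With the replicate block the count was 1, with 45 genes called in all.

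The median of the 34 members for KO_CD against WT_CD ran from 0.04 to 0.09 over 44 alternatives, highest among mice of 149 days, and stayed above 0. For KO_HFD against WT_HFD it ran from -0.00402 to 0.04, and was below 0 in 3, without WT_HFD replicate 1, without KO_HFD replicate 4 and among mice of 150 days. The median correlation between myelinating genes was 0.57 to 0.63 with 1 library left out and 0.518 with age and label block removed. The correlation of Mbp with Pdgfra turned to 0.0215 without the 2 farthest libraries. Depth limits Nkx2-9 most, and differences within the intervals given could not be detected.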
